A study of Mus musculus with 10 samples.

Results

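The 10 genes described here, Fasn, Scd1, Scd2, Acaca, Acly, Elovl1, Elovl6, Srebf1, Me1 and Lpcat1, encode enzymes of fatty acid synthesis, their main transcriptional regulator and a phospholipid enzyme that uses their products. They were found by symbol (GENCODE M21) among 45786 genes in the deposited tables, and all 10 were among the 15625 genes with enough counts to be tested. The list was drawn up with the differences between irradiated and control lung already known, so those differences are given below as a description, with no p-value for a member. Calls of members on those contrasts are given once, as counts beside the share of all genes called, and support nothing.

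RNA of dissociated whole lungs (cell suspensions) from C57BL/6J mice, an inbred strain, was sequenced. Irradiated mice received 12.5 Gy of γ-rays to the whole thorax, and age-matched controls received 0 Gy. There was 1 pool per treatment at 24 hours and at 1, 4, 12 and 32 weeks, each with the RNA of 3 mice, which makes 5 irradiated and 5 control libraries. The series' title presents the irradiated mice as a model of progressive lung fibrosis, and the labels give neither sex nor age at irradiation. No time has a second pool, so the spread between pools of a group holds time, mice and library preparation together.

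Fatty acids are built in the cytosol. ATP citrate lyase turns citrate exported from mitochondria into acetyl-CoA, acetyl-CoA carboxylase makes malonyl-CoA from it, and fatty acid synthase joins these units into palmitate with NADPH as the reductant. Elongases lengthen the chain, stearoyl-CoA desaturases add a double bond, and SREBP-1, made from Srebf1, switches on most of these genes. In the lung, alveolar type 2 cells use palmitate for the phosphatidylcholine of surfactant.

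Promoters of 3 members are shown first because SREBP-1 is known to act on lipogenic promoters together with the factors NF-Y and Sp1, and these 3 genes were among those that lay high together at the early times. They come from the RefSeq promoter table (build GRCm38.p6), which held 12 promoters of 8 members. Each shows the 250 bases before a transcription start, 5′ to 3′ on the gene's strand, with the NF-Y motif CCAAT, or ATTGG where it lies on the other strand, in capitals.
Fasn, chr11:120824548-120824797, minus strand: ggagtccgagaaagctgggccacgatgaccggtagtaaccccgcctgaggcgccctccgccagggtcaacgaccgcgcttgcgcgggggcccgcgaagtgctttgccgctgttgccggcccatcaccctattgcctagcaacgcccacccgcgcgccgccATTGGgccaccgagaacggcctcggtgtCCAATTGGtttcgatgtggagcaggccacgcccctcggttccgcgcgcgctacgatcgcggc
Elovl1, chr4:118427843-118428092, plus strand: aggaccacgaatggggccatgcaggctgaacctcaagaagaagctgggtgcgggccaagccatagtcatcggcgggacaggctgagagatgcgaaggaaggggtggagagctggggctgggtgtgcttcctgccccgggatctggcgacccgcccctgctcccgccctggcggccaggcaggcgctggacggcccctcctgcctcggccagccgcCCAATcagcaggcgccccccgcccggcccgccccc
Srebf1, chr11:60210472-60210721, minus strand: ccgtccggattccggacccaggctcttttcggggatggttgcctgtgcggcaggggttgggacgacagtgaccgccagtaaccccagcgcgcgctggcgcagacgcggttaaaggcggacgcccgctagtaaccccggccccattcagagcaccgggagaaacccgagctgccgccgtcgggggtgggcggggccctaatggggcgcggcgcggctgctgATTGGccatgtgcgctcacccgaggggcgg

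In the Fasn promoter the motif stood at bases −90 to −86, −62 to −58 and −59 to −55 counted back from the start, and the last 2 overlap. The single copies stood at −35 to −31 in Elovl1 and at −30 to −26 in Srebf1. CCAAT was found on either strand in promoters of 4 members (Fasn, Elovl1, Srebf1 and Me1), 41.7% of the 12 member promoters against 33.85% of 32851 promoters of the same length. Acly and Lpcat1, which like these 4 lay above every control up to 4 weeks, had no CCAAT in their windows. Nor did Acaca and Elovl6. At least 3 copies, as in Fasn, occurred in 2.79% of all. The Sp1 motif GGGCGG was present for 5 members (Acly, Elovl1, Srebf1, Me1 and Lpcat1), in 58.3% of the 12 member promoters against 32.74% of all. In the Elovl1 promoter shown, 1 of 5 copies overlaps CCAAT. The sterol regulatory element letters TCACNCCAC, present in 1.05% of all promoters, and the E-box CACGTG, in 6.02%, were in none of the member windows. Scd1 and Scd2 had no window. The only Acaca window, chr11:84195188-84195437, lies inside the gene, which starts at 84129672, so the sequence before that start was not searched. The Srebf1 window shown and the Me1 window with CCAAT also lie inside their genes. These matches describe letters in a window, not binding.

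The libraries held 8665409 to 17452995 fragments before the authors' scaling. The suspension carried its labelled tissue's markers, with summed transcripts of 12 alveolar type 2 genes between 24810 and 44570 CPM in controls (CPM, counts scaled by TMM to a common library total). In irradiated pools that sum was 60230, 61890, 45270, 8268 and 9485 CPM in time order, which is above every control at the first 3 times and below every control at the last 2. Fewer cells of a type and less RNA per cell cannot be told apart in such bulk samples. The defining adipocyte genes were at or near 0. Lep, the leptin gene, had 0 counts in all 10 pools, Adipoq (adiponectin) 0 to 5, Plin1 (a fat droplet protein) 1 to 16 and Ucp1 (brown fat) 0 to 4. Of the 10 white and 8 brown adipocyte markers, 3 each had enough counts to be tested. The lipid droplet gene Cidec made up most of the white adipocyte sum, with 80.3 to 136 CPM in controls and 22.7 to 133.8 CPM in irradiated pools. The brown adipocyte sum was 7.69 to 13.3 CPM in controls and 7.67 to 20.7 CPM in irradiated pools. It was highest in the 32-week irradiated pool, where all 3 tested markers exceeded the matched control and Cidea was at 10.99 against 2.58 ± 1.13 CPM in the 5 controls (SD; log2 2.10 ± 0.50 SE, edgeR adjusted p = 0.0808). The part of these cells in the members' levels was not tested.

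Most of the 10 genes lay high in irradiated lung for the first 4 weeks, highest against the matched control at 1 week, and were low or mixed from 12 weeks on. Against the control pool of the same time, 9, 10, 10, 3 and 4 of 10 members were higher at 24 hours, 1, 4, 12 and 32 weeks. Their median log2 difference was 0.48, 1.04, 0.67 (all-gene medians −0.004, 0.029 and 0.029) and then −0.37 and −0.07 (all-gene medians 0.0 and 0.025). With the deposited FPKM values in place of counts the numbers were 10, 10, 10, 5 and 6. FPKM values were used as deposited, without TMM. Their all-gene median differences in log2(FPKM + 1) were 0.039, −0.012, 0.167, 0.108 and 0.244 in time order. In counts all members but Acaca, 9 of 10, were higher in each of the first 3 pairs, as were 19.9% of all genes.

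**Figure D1:**
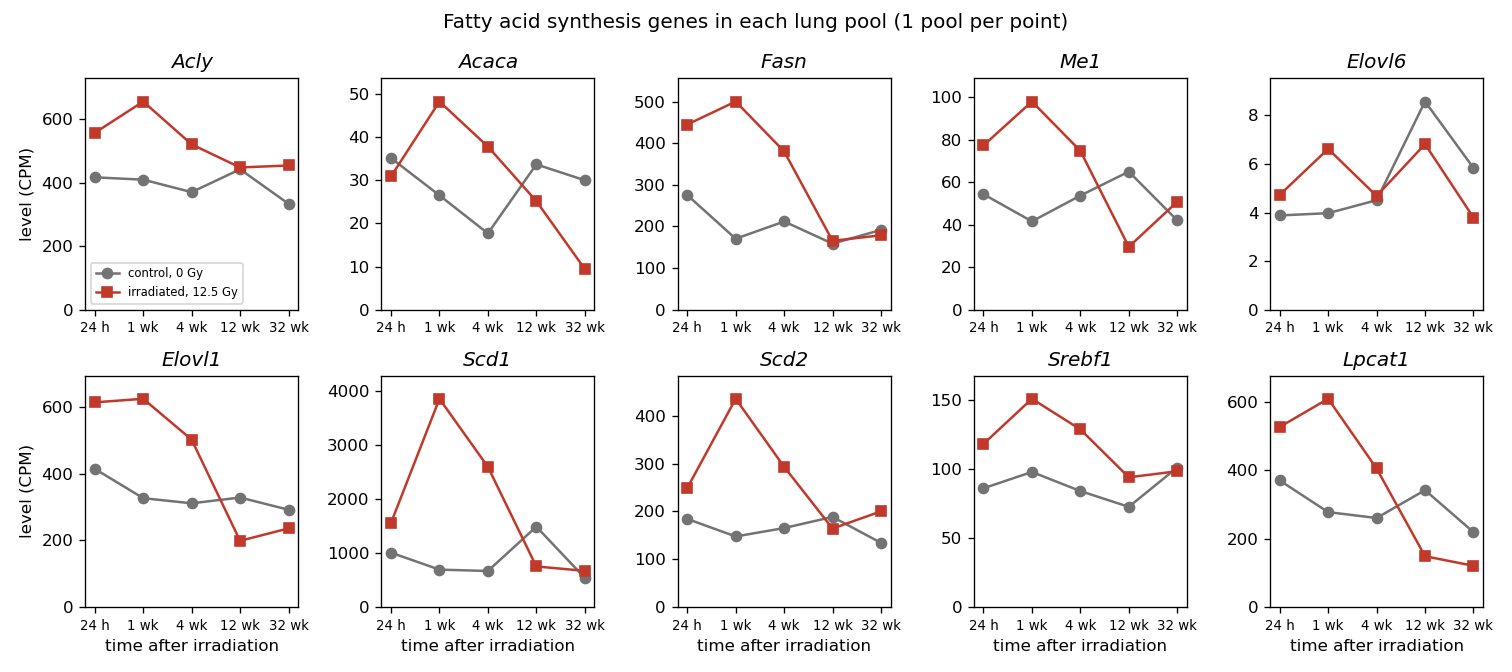
Level of each gene in CPM (vertical axis, from 0, a scale of its own in each panel) against time (horizontal axis) in the 5 control pools (grey circles) and 5 irradiated pools (red squares); each point is 1 pool of 3 mice, so there are no error bars. The red points lie above all grey points for 8, 9 and 9 genes at 24 hours, 1 week and 4 weeks, and for 1 and 2 genes at 12 and 32 weeks.

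Acly, which makes cytosolic acetyl-CoA from citrate (ENSMUSG00000020917, GRCm38 chromosome 11, 100476353 to 100528000, minus strand), was at 417, 409.5, 370.2, 442 and 334 CPM in the control pools at 24 hours, 1, 4, 12 and 32 weeks. Its irradiated pools held 557, 656, 521, 448 and 454 CPM in the same order. The groups did not overlap, although the 12-week irradiated pool was barely above the highest control. Such full separation upward was seen in 1.17% of all tested genes, and in counts Acly was the only member with it. Acly was also the only member higher in 5 of 5 matched pairs in counts, as were 6.75% of all genes, with ratios of 1.34, 1.60, 1.41, 1.01 and 1.36. Both depend on the unit. In FPKM the groups did not overlap for Srebf1 either, and Srebf1 and Fasn were higher in every pair too. The shares of all genes given here are for counts, and none was worked out in FPKM. The FPKM differences of Fasn at 12 and 32 weeks (0.08 and 0.101 in log2 of FPKM + 1) were below the all-gene medians of 0.108 and 0.244.

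Acaca encodes acetyl-CoA carboxylase 1, which makes malonyl-CoA and commits carbon to fatty acids (ENSMUSG00000020532, chromosome 11, 84129672 to 84401651, plus strand). Control pools held 35.2, 26.5, 17.7, 33.7 and 30.02 CPM in time order, and irradiated pools 30.9, 48.3, 37.8, 25.2 and 9.44 CPM. Irradiated lung was thus above all controls at 1 and 4 weeks and below all at 32 weeks, where the ratio to the matched control was 0.318. For this gene the authors' counts and FPKM differ in direction. The FPKM ratio to the matched control was 1.58, 1.57, 2.01, 1.23 and 0.72 in time order, where the count ratio was 0.88, 1.82, 2.13, 0.748 and 0.318. The 1-week and 4-week differences, both higher, and the lower one at 32 weeks have the same sign in both units.

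Fasn encodes fatty acid synthase, the multi-domain enzyme that makes palmitate (ENSMUSG00000025153, chromosome 11, 120805846 to 120824547, minus strand). Its control pools held 276, 170.5, 212 (4 weeks), 159 and 192 CPM. The irradiated pools held 445, 501, 381, 166 and 179 CPM. The first 3 lay above every control, by 1.62, 2.94 and 1.79 times their matched pools, and the last 2 lay inside the control range. At 32 weeks counts and FPKM differed in sign, with ratios of 0.933 and 1.08. In both units the log2 difference, −0.10 in counts and 0.101 in FPKM + 1, was below the all-gene median (0.025 and 0.244). The 24-hour control was the highest of its group, and against the mean of the 5 controls the 24-hour log2 difference grew from 0.69 to 1.17.

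Me1, the cytosolic malic enzyme and a source of NADPH (ENSMUSG00000032418, chromosome 9, 86581371 to 86695953, minus strand), was at 54.4, 41.6, 53.8, 65.03 and 42.1 CPM in controls. The irradiated values were 77.4, 98.1, 74.8, 29.6 and 50.9 CPM. They were above all controls up to 4 weeks and below all of them at 12 weeks, at 0.457 of the matched pool. At 32 weeks the irradiated pool was within the control range.

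The 2 elongases of the list differed in level and in pattern. Elovl1, which lengthens saturated and monounsaturated very long chains (ENSMUSG00000006390, chromosome 4, 118428093 to 118432953, plus strand), was at 415, 326, 311, 328 and 292 CPM in controls and at 614, 625, 502, 198 and 236 CPM in irradiated pools. All 5 irradiated values lay outside the control range, 3 above it and 2 below. Its last bases overlap Cdc20 on the other strand, a gene with a mean of 273 counts against 4692 for Elovl1, and the NexteraXT kit does not mark strand.

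Elovl6, which takes palmitate to stearate (ENSMUSG00000041220, chromosome 3, 129532355 to 129638495, plus strand), was scarce, with a mean of 64.7 counts per library. Controls held 3.88, 3.97, 4.51, 8.57 and 5.84 CPM, and irradiated pools 4.73, 6.62, 4.68, 6.82 and 3.79 CPM. The irradiated values fell inside the control range at every time but 32 weeks, where the value was slightly below it. At 12 weeks counts and FPKM gave opposite signs (ratios of 0.799 and 1.19).

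The desaturases held the largest matched ratio of the list. Scd1, stearoyl-CoA desaturase 1 (ENSMUSG00000037071, chromosome 19, 44394455 to 44407879, minus strand), had control pools at 1005, 691, 666, 1487 and 539 CPM. Irradiated pools were at 1557, 3859, 2597, 749.7 and 668 CPM. The 1-week and 4-week values were 5.59 and 3.90 times their matched controls, at the 99.7th and 99.5th percentile of the matched differences of all tested genes. The 12-week control stood highest among the controls, so the matched ratio of 0.504 at that time sets a mid-range irradiated pool against a high control. With the mean of the 5 controls in its place, the 12-week log2 difference went from −0.99 to −0.13, and the 32-week one from 0.31 to −0.30.

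Scd2, a second desaturase gene on chromosome 19 (ENSMUSG00000025203, 44293674 to 44306864, plus strand), was at 184, 148, 165, 189 and 134 CPM in controls and at 249, 436, 294, 164 and 200.3 CPM in irradiated lung. It exceeded all controls at 24 hours, 1, 4 and 32 weeks, with matched ratios of 1.35, 2.95, 1.78 and 1.49, and was 0.871 of its matched control at 12 weeks. Scd1 and Scd2 are paralogs, and no source used here says how fragments shared between them were assigned. The other 2 mouse desaturases of this family were scarce, Scd3 with 2 to 18 counts in any pool and Scd4 with 0 to 23.

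Srebf1, the gene of SREBP-1 (ENSMUSG00000020538, chromosome 11, 60199089 to 60222581, minus strand), was at 85.9, 97.8, 83.9, 72.5 and 101 CPM in controls. Irradiated pools held 118, 151, 129, 93.9 and 98.3 CPM. The first 3 exceeded every control, by 1.37, 1.54 and 1.53 times the matched pools, smaller ratios than those of Fasn or Scd1 at 1 week. In counts the 12-week and 32-week pools lay among the controls. In FPKM they were at 20.02 and 21.26, above every control (at most 18.95). At 32 weeks the ratio was 0.973 in counts and 1.29 in FPKM. The log2 differences were −0.039 in counts and 0.347 in FPKM + 1, beside all-gene medians of 0.025 and 0.244. Gene-level values do not separate the SREBP-1a and SREBP-1c transcripts, and Rai1 on the other strand overlaps the gene's end.

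Lpcat1 makes saturated phosphatidylcholine in surfactant by acylating lysophosphatidylcholine (ENSMUSG00000021608, chromosome 13, 73467197 to 73516422, plus strand). Control pools held 370.0, 277, 260.2, 342 and 219 CPM, and irradiated pools 527, 609, 405, 148 and 120.2 CPM. The first 3 irradiated pools lay above all controls and the last 2 below all, at 0.434 and 0.55 of their matched pools.

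**Figure D2:**
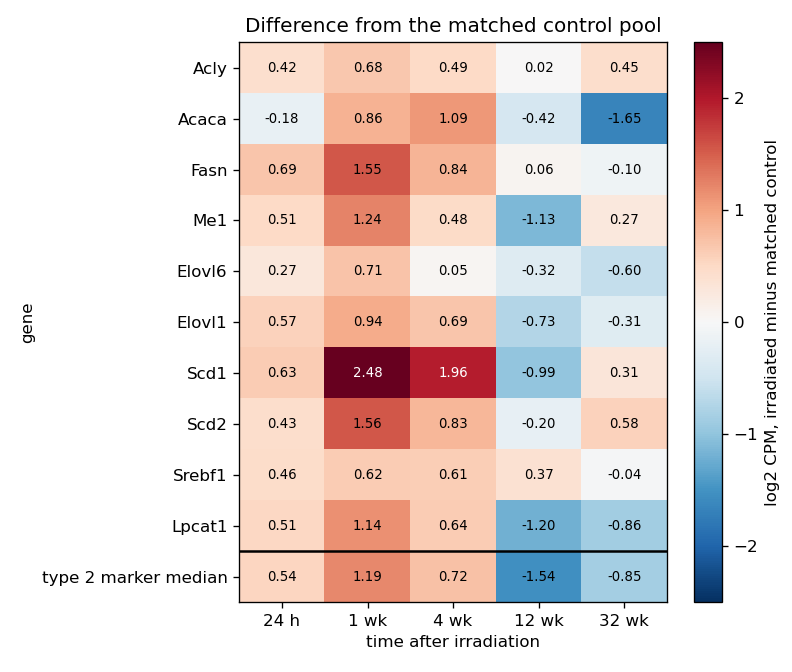
Log2 CPM of each irradiated pool minus its matched control (colour and printed value) for the 10 genes (rows) at the 5 times (columns), 1 pool against 1 pool. The 1-week column is positive for all 10 genes, from 0.62 for Srebf1 to 2.48 for Scd1, and the 12-week column runs from −1.20 for Lpcat1 to 0.37 for Srebf1.

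Per length, in FPKM, the control levels fell in the order Elovl1 (137 ± 24.1), Scd1 (102 ± 46.1), Lpcat1 (84.3 ± 24.4), Acly (53.4 ± 7.12), Scd2 (18.6 ± 3.15), Srebf1 (17.3 ± 1.29), Me1 (13.3 ± 2.90), Fasn (13.0 ± 3.47), Acaca (2.03 ± 0.30) and Elovl6 (1.61 ± 0.67; SD, n = 5 pools for each). Of the 9 neighbouring pairs in this order, 2 had control ranges that did not overlap, Acly above Scd2 and Fasn above Acaca. The mean FPKM level over the irradiated pools was highest for Scd1, at 232 ± 158, with Elovl1 next at 191 ± 86.2. Along the chain of synthesis, the control level of the lyase gene Acly was above that of Fasn, and that of the carboxylase gene Acaca below it, in every control pool.

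Counts of calls are given beside those of all genes, and since the members were chosen on these contrasts nothing is read from them. Each fit sets 1 irradiated pool against the same 5 controls, so the 5 fits share their controls. At 24 hours 8 members were above all 5 controls (22.1% of all genes were), at 1 week 9 (22.6%), at 4 weeks 9 (19.1%), at 12 weeks 1 (21.9%) and at 32 weeks 2 (25.5%). None was below all controls up to 4 weeks (21.2%, 18.8% and 16.8% of all genes), while 3 were at 12 weeks (21.5%) and 4 at 32 weeks (23.3%). At an edgeR adjusted p under 0.05, members called were 0 in each comparison, against 1.05%, 0.0128%, 0.0512%, 0.0% and 0.819% of all genes at the 5 times and 0.0% over the 5 times together. At an unadjusted p under 0.05 the members called were 6, 9, 5, 3 and 3 (12.0%, 9.52%, 7.17%, 10.7% and 16.3% of all genes) and 4 over the 5 times (11.1%). DESeq2 called 3 higher, 5 higher, 1 higher, 2 lower and 2 lower (3.75%, 1.82%, 0.773%, 1.51% and 5.53% of all genes with an adjusted p, in either direction), and 0 over the 5 times (1.74%).

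The change with age in unirradiated lung was not used to choose the genes and was tested. The fit held all 10 pools with a slope for each treatment, so its SE and p rest on a spread shared with the irradiated pools. Over the 5 control pools the log2 slope per doubling of days was −0.07 ± 0.05 for Fasn, −0.01 ± 0.11 for Scd1, −0.02 ± 0.03 for Acly, −0.06 ± 0.06 for Lpcat1 and 0.12 ± 0.07 for Elovl6 (SE). No member passed (edgeR adjusted p = 0.998 for 9 of them and 1 for Me1), and the smallest unadjusted p was 0.0987, for Elovl6. Among all genes 0.0% passed, 4.31% had an unadjusted p under 0.05, among them 0 members, and DESeq2 called 0.166% (26 genes) and 0 members. Of the 10 slopes 7 changed sign when 1 control or the scaling was changed, so no direction with age is given for them.

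Alveolar type 2 genes also lay high up to 4 weeks, and low after that. All 12 markers lay above their matched control at 24 hours and 1 week and 11 at 4 weeks, against 0 at 12 weeks and 1 at 32 weeks, with median log2 differences of 0.54, 1.19, 0.73, −1.54 and −0.85. With edgeR, 2 markers rose at 24 hours. Abca3, the surfactant lipid transporter, was at 522 against 218 ± 31.2 CPM in controls (SD, n = 5; log2 1.26 ± 0.18 SE, adjusted p = 0.014), and Etv5, a transcription factor of type 2 cells, at 299 against 126 ± 21.1 CPM (adjusted p = 0.021). Without the 1-week control the Etv5 call was lost (0.0531), and the Abca3 call held without any 1 control (at most 0.0459). With limma on log2(FPKM + 1) neither Etv5 (0.0743) nor Abca3 (0.0524) passed, and Etv5 did not at a pseudocount of 0.1 (0.0654). At 32 weeks Sftpc, which encodes surfactant protein C, fell to 5940 from 24140 ± 5542 CPM (log2 −2.01 ± 0.34, adjusted p = 0.0358), and Etv5 fell too (log2 −1.37 ± 0.24, adjusted p = 0.0431). Without the 24-hour, 1-week or 12-week control the Sftpc value was 0.0553, 0.094 and 0.0591. The 32-week Etv5 call was lost without the 24-hour, 1-week, 12-week or 32-week control (0.0687, 0.0859, 0.0591 and 0.0536) and with limma (0.0722 and 0.091). The part of type 2 cell number in the members' levels was not tested.

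Set beside these markers, most members lay nearer to their matched control at the late times, as did most of all genes. The matched log2 difference was above the type 2 median for 3, 4 and 4 of 10 members up to 4 weeks, and for 10 and 8 of 10 at 12 and 32 weeks. Lpcat1, the member closest to that median at both late times, was at the 4.4th and 10.5th percentile of all tested genes. Most genes were thus above the type 2 median too, and the late counts are no trait of the members. Scd1 stood out from the markers early, by 1.29 at 1 week and 1.24 at 4 weeks on the log2 scale. At 12 weeks Srebf1 lay 1.91, Fasn 1.60 and Acly 1.55 above the type 2 median, while Lpcat1 lay 0.33 above it. Lpcat1 at 32 weeks was level with it, at −0.01, and Acaca was below it, at −0.80. As a description over the 10 pools, which share time, treatment and library, Pearson's r between a member's log2 CPM and the mean of the 12 markers was 0.98 for Lpcat1, 0.97 for Elovl1, 0.85 for Me1, 0.83 for Fasn, 0.75 for Scd1, 0.71 for Acaca, 0.64 for Scd2, 0.54 for Acly, 0.47 for Srebf1 and 0.01 for Elovl6.

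**Figure D3:**
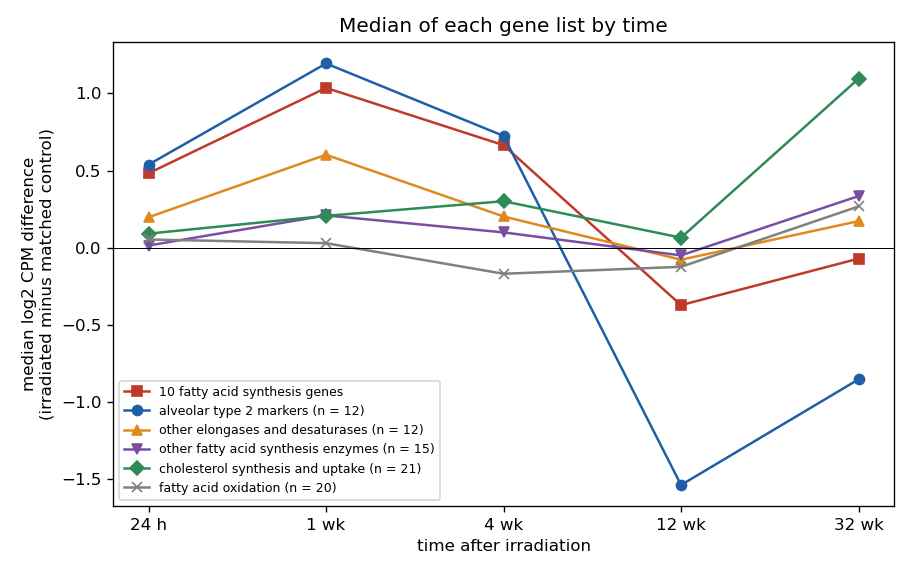
Median log2 CPM difference from the matched control (vertical axis) at each time (horizontal axis) for the 10 genes and 5 other gene lists, 1 pool against 1 pool with no error bars. The 10 genes and the type 2 markers run close together up to 4 weeks and part at 12 weeks, at −0.37 and −1.54.

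Markers of other lung cells that handle lipid are given for comparison. The alveolar macrophage sum was 7471 to 15000 CPM in controls and 2909 (4 weeks) to 21560 (32 weeks) in irradiated pools, and Marco rose at 24 hours, to 380.3 from 133 ± 31.3 CPM (log2 1.52 ± 0.25, adjusted p = 0.0262; 0.0779 and 0.0541 without the 1-week and the 32-week control, 0.0555 and 0.0523 with limma). At 4 weeks 4 of the 10 markers fell with edgeR, Krt79 (log2 −3.42, adjusted p = 0.00297), Ear1 (−2.49, 0.00727), Siglecf (−2.16, 0.0214) and Fabp1 (−2.88, 0.027). Siglecf was at 0.0652 without the 1-week or the 12-week control, and Fabp1 at 0.117 and 0.0915 without the 1-week and the 32-week control. The 6 lipofibroblast markers summed to 1167 to 1632 CPM in controls and 923 to 2101 CPM in irradiated lung, and the 7 type 1 markers to 483 to 832 and 416 to 1066 CPM. Median log2 differences from the matched control, in time order, were 0.325, 1.038, −0.276, −0.308 and −0.213 for type 1 markers. They were 0.418, 0.002, −1.496, −0.099 and 0.273 for macrophage markers, and 0.242, 0.295, −1.354, 0.031 and −0.874 for lipofibroblast markers. At 12 weeks the type 1 median was nearer to that of the members (−0.371) than the type 2 median was. The part of all these cells in the members' levels was not tested.

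Among themselves most members varied together over the pools, and Elovl6, with a mean of 64.7 counts, did not. The members were chosen with the treatment differences known, which builds part of this into the list. Pairs of other genes were not set beside it, and the part of low counts in the values of Elovl6 was not tested. Over the 45 pairs the median r of log2 CPM across the 10 pools was 0.67, with 14 pairs over 0.8 and 3 below 0, and all 3 of these held Elovl6. Lpcat1 with Elovl1 reached 0.95, and Scd1 with Scd2 and Scd2 with Acly reached 0.93. Of 12368 genes with at least 50 counts on average, those most like Fasn were Lrp2 (r = 0.957), an endocytic receptor gene, Abca3 (0.954), Tinagl1 (0.95), Mthfd1 (0.945), a folate enzyme, Mal (0.944), Gm14493 (0.944), Fzd8 (0.941), a Wnt receptor, Pi4k2b (0.938), Bcl2l1 (0.937), which encodes the survival protein Bcl-xL, and Amotl2 (0.935). The members themselves ranked from 26th (Elovl1) to 7086th (Elovl6) for Fasn, with Scd2 at 124th and Acaca at 1449th. Those most like Scd1 were Tmem50b (0.993), Ahcyl2 (0.969), Alcam (0.949), Itga6 (0.941) and Sntb1 (0.932). For Scd1 the members ranked from 5th (Scd2) to 2827th (Elovl6) among all these genes.

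Genes of the same pathway outside the list had median differences nearer to 0 up to 4 weeks. The members were chosen with these differences known, so this contrast was set by the choice and nothing is read from it. Of 49 other synthesis, elongation, regulator and acyl-CoA synthetase genes, edgeR called 0 at each of the 5 times and 0 over them. Over the 5 times 5 were higher at an unadjusted p under 0.05 and DESeq2 called 0. At an unadjusted p under 0.05 in a single time the counts were 7 higher and 2 lower at 24 hours, 7 and 0 at 1 week, 5 and 1 at 4 weeks, 0 and 4 at 12 weeks, and 9 and 1 at 32 weeks, where 12.0%, 9.52%, 7.17%, 10.7% and 16.3% of all genes had such a p in either direction. DESeq2 called 1 higher at 1 week and 4 higher at 32 weeks. The counts above the matched control were 33, 38, 35, 21 and 39 of 49, with medians of 0.14, 0.24, 0.10, −0.02 and 0.24. Mid1ip1, which encodes a protein that helps acetyl-CoA carboxylase polymerise, was at 219 against 102 ± 9.14 CPM at 1 week (log2 1.08 ± 0.16, adjusted p = 0.0928). Fads2 and Fads1, desaturases of polyunsaturated chains, had log2 differences of 0.85 ± 0.22 and 0.67 ± 0.19 at 1 week (adjusted p = 0.277 and 0.323). At 32 weeks the smallest adjusted p among the synthesis enzymes and acyl-CoA synthetases were those of Pgd and Idh1, both sources of NADPH (log2 0.65 ± 0.15 and 0.86 ± 0.21, adjusted p = 0.0751 and 0.0856), and of the fatty acid transporter gene Slc27a1 (0.88 ± 0.22, 0.0871). The SREBP retention gene Insig1 was at 62.1 CPM at 24 hours against 43.3 ± 5.36 in controls (adjusted p = 0.364). Acacb, the mitochondrial carboxylase gene, had 2 to 68 counts in controls and 25 to 102 in irradiated pools, and Mlxipl, a carbohydrate-responsive regulator, had 0 to 20 counts in any pool and was not tested.

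Neighbouring lipid pathways were also counted. In glycerolipid and phospholipid synthesis 1 of 29 genes passed at 24 hours, Lpin1, a phosphatidate phosphatase gene, at 170 against 92.7 ± 7.69 CPM (log2 0.87 ± 0.16, adjusted p = 0.0357). The call was lost without any 1 of the 5 controls (0.0543 to 0.0792). Of 20 fatty acid oxidation genes edgeR called 0 at each time, with 1, 0, 1, 0 and 4 at an unadjusted p under 0.05, and DESeq2 called 1, at 32 weeks. The shares of all genes given above for the same thresholds and times stand beside the calls in this paragraph too, and nothing is read from those counts. Cholesterol synthesis and uptake genes were high at 32 weeks, when 21 of 21 exceeded the matched control, as did 51.8% of all genes. Their median was 1.10 against −0.07 for the 10 members. Those that passed with edgeR included Sqle (209.6 against 71.7 ± 13.2 CPM, log2 1.56 ± 0.21, adjusted p = 0.0162), the HMG-CoA synthase gene Hmgcs1 (1.12 ± 0.17, 0.0267), Cyp51 (1.25 ± 0.20, 0.0317) and Mvd (1.16, 0.0443), the last named here after its value was seen. Without the 1-week control these stood at 0.0643, 0.0859, 0.0643 and 0.0925. Sqle and Hmgcs1 passed without any other 1 control (at most 0.0432 and 0.0468). Cyp51 passed only without the 4-week or the 32-week control (0.0245 and 0.042). Mvd passed only without the 4-week one (0.0325). With limma Cyp51 did not pass (0.0509 and 0.0746 at pseudocounts of 1 and 0.1), nor did Hmgcs1 at 0.1 (0.0541). Whether the cholesterol genes differ from the fatty acid genes at 32 weeks was not tested.

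**Figure D4:**
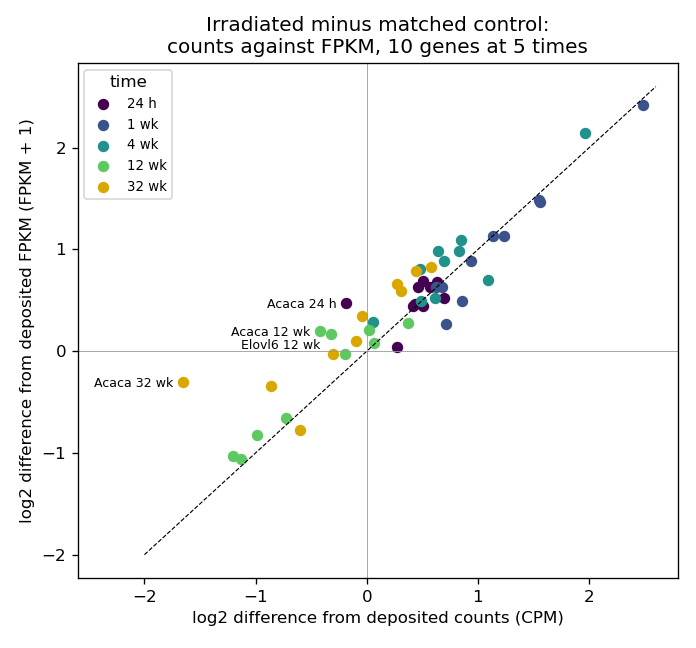
Matched log2 difference from counts (horizontal axis, CPM) against that from deposited FPKM (vertical axis, log2 of FPKM + 1) for the 10 genes at 5 times, coloured by time, with the dashed line of equality. Most points lie near the line, and Acaca at 24 hours and 12 weeks, Elovl6 at 12 weeks, and Fasn and Srebf1 at 32 weeks lie on opposite sides of zero in the 2 units. All-gene medians on the vertical scale were 0.039, −0.012, 0.167, 0.108 and 0.244 in time order.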

How the data were processed

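Per the labels' protocols, RNA of 10 pools was prepared with the kits Qiagen RNeasy PLUS, Clontech ultralow and, for libraries, Illumina NexteraXT. The submitters' processing notes name STAR 2.4.2a, Trimmomatic 0.32, Cuffdiff and Cufflinks 2.0.2, and build GRCm38.p4. The sources used here do not say which tool made which value or with what annotation. For 45786 genes the authors deposited expected counts and FPKM. The deposited counts lay at multiples of a library-specific step (0.577 to 1.387; 78.1% to 80.5% of values within 0.05 of a multiple), so they had been scaled before deposit. Division by the step gave the fragments quoted. Of the identifiers 45223 matched GENCODE M21. No table column belonged to no sample (0), and 0 pairs of libraries were identical.

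Counts were rounded, scaled by TMM (factors 0.933 to 1.086) and filtered with filterByExpr at a minimum count of 10. edgeR 4.0.16 quasi-likelihood F tests (R 4.3.3, robust, 2-sided) with Benjamini-Hochberg adjustment over 15625 genes used time as a block over the 5 times (4 residual degrees of freedom), 1 irradiated pool against 5 controls at each time (4), and treatment-specific slopes over log2 days (6). The lone pool is assumed to vary like the controls, whose times differ. The labels pair pools by time, and same-time deviations correlated at r = 0.38, 0.07, 0.24, 0.06 and 0.16. Each pool is 1 library, so p-values reflect biological and technical spread between pools together. Matched differences use log2 CPM with a prior count of 2. The edgeR test gives no SE, so each quoted SE of an edgeR log2 value is its size divided by the square root of F. Alternatives were total count scaling, counts divided by the step, DESeq2 1.42.0, no filter, limma 3.58.1 on log2 FPKM with pseudocounts of 1 and 0.1, each control left out, and, for matched differences, the mean of the controls. The scripts were tested on simulated data.

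The members and gene lists were chosen with earlier results of these data known. All members are named; of each other list, up to 4 genes that passed, or otherwise up to 2 with the smallest p, were eligible; adipocyte, type 2 and regulator genes were always named, and pattern neighbours were ranked by Pearson's r. Of the genes that passed, 1 is not reported here.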

Additional observations from a re-analysis of the deposited data

How the results depend on the processing

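Each time has 1 pool per treatment, the controls span all times, and counts were scaled before deposit. Elovl6, with a mean of 64.7 counts, has the widest counting error of the members. Members called over the 5 times stayed at 0 under all alternatives run, and the comparison without the replicate block gave 0 genes and 0 members called, as with it. DESeq2 called 251 genes over the 5 times, 26 for the control slope, and 540 (218 higher), 240, 88, 222 and 831 at the 5 times, with 3, 5, 1, 2 and 2 members. Without a filter on low counts it was 1 gene over the 5 times and 250, 24, 31, 37 and 315, with 2 members at 24 hours, 2 at 1 week and 2 at 32 weeks. Total count scaling gave 0 genes at 1 week and 65 at 32 weeks (36 higher), where it moved the all-gene median by −0.175; no member's matched difference changed sign. limma on log2(FPKM + 1) called 101 at 24 hours, 16 at 4 weeks, 7 at 12 weeks and 381 at 32 weeks (341 higher), and at 0.1 it called 17 at 4 weeks and 13 at 12 weeks. With both pseudocounts 5 members exceeded the matched control at 12 weeks. The all-gene median matched difference in log2(FPKM + 1) was 0.108 at 12 weeks and 0.244 at 32 weeks. The cause was not tested for any of these.

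Leaving out 1 control gave 64 to 162 genes at 24 hours (lowest without the 1-week control, 107 without the 32-week one), 0 to 12 at 1 week, 5 to 14 at 4 weeks, 0 to 2 at 12 weeks and 8 to 312 at 32 weeks (8 without the 1-week control, 312 without the 4-week one, 35 without the 24-hour one and 84 without the 12-week one). Members called ranged from 0 to 2 at 24 hours and 1 week, both 2 without the 24-hour control, and from 0 to 1 at 32 weeks. Control slopes over these omissions ran from −0.101 to 0.007 for Fasn, −0.11 to 0.063 for Scd1, −0.05 to 0.005 for Scd2, −0.041 to 0.076 for Acaca, −0.043 to 0.003 for Acly, −0.039 to 0.022 for Srebf1 and −0.033 to 0.042 for Me1. They changed sign without the 24-hour control (Fasn, Scd1, Acaca, Srebf1, Me1) or the 32-week control (Scd1, Scd2, Acly, Srebf1, Me1). The Srebf1 slope was −0.003 with limma at either pseudocount, and that of Me1 0.012 with total count scaling.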
